A study of Mus musculus with 16 samples.

Results

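The genes considered here were 9 imprinted genes of the mouse, Igf2, H19, Ascl2, Phlda2, Dlk1, Meg3, Igf2r, Grb10 and Peg3, out of 26195 annotated protein-coding and long noncoding genes. The genes were chosen by name, with earlier results of these data known. The peaks assigned to them were those lying in the gene or within 10 kb of it on the NCBIM37 (mm9) GENCODE annotation. E14 is a line of mouse embryonic stem cells (ESC), in which total Jarid2 and Jarid2 dimethylated at lysine K116 (Jarid2-K116me2) were mapped by ChIP-seq, with 1 sample per antibody. H3K27me3 was mapped in 12 libraries from 3 lines that all derive from Jarid2 -/- ESC: the knockout itself (KO), the knockout carrying a BAC with Jarid2 (WT rescue), and the knockout carrying a BAC with Jarid2 K116A (K116A rescue). Each line was profiled as ESC and as embryoid bodies (EB) at 8 days of differentiation, with 2 replicates per group. The EB were formed in hanging drops and moved to low-adherence plates after 2 days. Each genotype was represented by 1 line, so genotype and line cannot be told apart. In EB, which are mixtures of cell types, a larger share of cells with the mark and more mark per cell cannot be told apart.

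Imprinted genes are expressed from only the maternal or only the paternal allele, in most cases through DNA methylation set in the germ line at imprinting control regions. Polycomb repressive complex 2 (PRC2) methylates lysine 27 of histone H3, and Jarid2 is a subunit that helps to recruit it to CpG-rich promoters of silent genes and stimulates its activity. At several imprinted loci H3K27me3 marks an allele that is not expressed. Peak lists from whole cells do not show which parental allele carried a peak.

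The broad peaks of H3K27me3 numbered between 1478 and 14125 per library and covered between 2.31 and 55.0 Mb. The fewest and shortest were in replicate 1 of the WT rescue ESC, which stands apart from the other libraries. In every group replicate 2 had more peaks than replicate 1, and the called length was not corrected for depth. The study describes the replicate 2 libraries as of higher quality and took its peak set for ESC and EB from them. Here both replicates had equal weight. The study lists the reads of every library, and these numbers were not used here because the peak lists do not hold them. They do not rank the libraries as the called length does, since replicate 1 of the WT rescue ESC was the most deeply sequenced of the ESC libraries. As a check of the cells, all 10 of 10 classical PRC2 targets on a list of Hox genes and lineage factors had a Jarid2 peak, against 2 of 9 pluripotency genes (Esrrb and Prdm14), a share of 22.2% beside 20.1% of all genes. Of the 7 pluripotency genes without a peak, Pou5f1, Nanog, Zfp42 and Tdgf1 had a median H3K27me3 coverage of 0 in ESC and in EB, Sox2 of 2.70% and 10.5%, Klf4 of 0% and 18.5%, and Dppa3 of 6.87% and 0%. The peak lists do not test the deletion of Jarid2 itself.

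The DNA just upstream of the most 5′ annotated transcription start site (TSS) differed widely between these genes. The 200 bases before the TSS are shown in mm9 for 4 genes whose start lay in a Jarid2 peak and for 3 whose start did not, 5′ to 3′ on the gene's strand, with each CG dinucleotide in capitals, since CpG-rich starts are the usual targets of PRC2. None of these windows overlaps an annotated exon.
Ascl2 (chr7:150155170-150155369, minus strand, in a Jarid2 peak): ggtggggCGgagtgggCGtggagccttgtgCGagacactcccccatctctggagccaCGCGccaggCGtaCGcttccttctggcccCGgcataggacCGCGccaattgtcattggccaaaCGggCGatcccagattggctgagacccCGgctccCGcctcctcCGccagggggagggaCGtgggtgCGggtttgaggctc
Phlda2 (chr7:150688447-150688646, minus strand, in a Jarid2 peak): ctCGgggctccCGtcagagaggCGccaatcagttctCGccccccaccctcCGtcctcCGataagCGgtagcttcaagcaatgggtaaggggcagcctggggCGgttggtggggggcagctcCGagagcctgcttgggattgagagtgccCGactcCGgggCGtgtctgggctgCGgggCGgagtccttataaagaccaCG
Grb10 (chr11:11938687-11938886, minus strand, in a Jarid2 peak): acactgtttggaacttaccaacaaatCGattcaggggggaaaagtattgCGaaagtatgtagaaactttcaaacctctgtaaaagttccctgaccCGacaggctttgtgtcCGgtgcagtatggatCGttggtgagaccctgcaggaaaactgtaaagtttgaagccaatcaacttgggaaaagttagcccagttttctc
Dlk1 (chr12:110690833-110691032, plus strand, in a Jarid2 peak): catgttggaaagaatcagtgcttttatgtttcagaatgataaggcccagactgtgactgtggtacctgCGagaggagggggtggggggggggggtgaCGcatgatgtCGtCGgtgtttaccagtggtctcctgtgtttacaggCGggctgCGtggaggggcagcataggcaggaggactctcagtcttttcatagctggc
Igf2r (chr17:12962531-12962730, minus strand, no Jarid2 peak): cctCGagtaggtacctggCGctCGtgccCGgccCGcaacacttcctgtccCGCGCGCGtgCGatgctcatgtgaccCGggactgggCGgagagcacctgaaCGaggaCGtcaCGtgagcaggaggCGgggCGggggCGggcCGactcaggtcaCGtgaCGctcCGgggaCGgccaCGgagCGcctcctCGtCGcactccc
H19 (chr7:149764049-149764248, minus strand, no Jarid2 peak): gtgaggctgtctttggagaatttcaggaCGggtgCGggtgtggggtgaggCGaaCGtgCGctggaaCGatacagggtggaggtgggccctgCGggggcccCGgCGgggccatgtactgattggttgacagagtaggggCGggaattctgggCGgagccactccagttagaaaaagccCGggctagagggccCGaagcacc
Meg3 (chr12:110779011-110779210, plus strand, no Jarid2 peak): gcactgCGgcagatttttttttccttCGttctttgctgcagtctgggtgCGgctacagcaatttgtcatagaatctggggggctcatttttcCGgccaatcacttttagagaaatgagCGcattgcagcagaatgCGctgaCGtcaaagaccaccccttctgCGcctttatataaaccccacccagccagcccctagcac

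The window of Igf2r held the most CG dinucleotides of the 9, with 27, and only 5.09% of 26190 genes had as many or more. Ascl2 held 17, Phlda2 15, H19 13, Meg3 and Peg3 8 each, Dlk1 6, Grb10 5 and Igf2 1, beside a median of 6 over all genes. The CG count did not separate the starts with a Jarid2 peak from those without: the richest, that of Igf2r, had no peak, and those of Dlk1 and Grb10 were at or below the median and lay inside one. CG means the letters CG on either strand, which are the same. A count in a window is a description and does not name a binding site.

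Jarid2 peaks were present at 6 of the 9 genes (66.7%), against 20.1% of all genes, and Jarid2-K116me2 peaks at 5 of the 9 (55.6%), against 17.8% of all genes. A peak of either antibody within 1 kb of a TSS was found at 5 of the 9 genes (Igf2, Ascl2, Phlda2, Dlk1 and Grb10), against 14.9% of all genes for Jarid2 and 13.3% for Jarid2-K116me2. H19, Meg3 and Peg3 had no peak of either antibody. The score given with each peak is minus 10 times the log10 of its p-value, and many of the strongest peaks share the value 3100, so that their order is unknown. The 9 Jarid2 peaks and 10 Jarid2-K116me2 peaks at these genes are counted from 1 sample each and carry no replicate error. Of the Jarid2 peaks 5 of 9 (55.6%) overlapped a Jarid2-K116me2 peak by at least 1 bp, against 79.1% of the whole list. All 10 Jarid2-K116me2 peaks overlapped a Jarid2 peak, against 98.7% of the whole list. The 4 Jarid2 peaks without a counterpart scored 66.95 to 151.87, in a list whose lowest score was 62.07, and with a score of 200 or more in both lists all 5 remaining Jarid2 peaks overlapped.

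The H19 and Igf2 genes lie 72.6 kb apart on chromosome 7. Igf2 encodes insulin-like growth factor 2, a fetal growth factor expressed from the paternal allele, and H19 is a long noncoding RNA expressed from the maternal allele. Igf2 (ENSMUSG00000048583.9, chr7:149836673-149852721, minus strand) carried 1 peak of each antibody. The Jarid2 peak (chr7:149843487-149851907) was 8421 bp long and scored 3100, as did the Jarid2-K116me2 peak (chr7:149843500-149851596), which lay wholly within it. They covered 5 of the 9 annotated TSSs of Igf2 and the start of the antisense transcript Igf2as, but not the most upstream TSS. H19 (chr7:149761434-149764048, minus strand) was free of both, and the nearest Jarid2 peak, that of Igf2, was 79.4 kb upstream. H3K27me3 coverage of H19 and the surrounding 10 kb was 0 in all 12 libraries. On the Igf2 side the mark did not stop with the Jarid2 peak, which ended 9.23 kb downstream of the most upstream TSS. Short domains lay 21.7 to 23.2 kb downstream in replicate 2 of every group and in replicate 1 of the WT rescue and K116A rescue EB. Both K116A rescue EB libraries had another at 16.9 to 18.0 kb.

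H3K27me3 lay over Igf2 in all 12 libraries. It covered 21.7% and 29.6% of the gene and its flanks of 10 kb in KO ESC, 9.63% and 24.6% in WT rescue ESC, 25.7% and 28.9% in K116A rescue ESC, 19.9% and 28.3% in KO EB, 25.6% and 26.997% in WT rescue EB, and 31.5% and 35.3% in K116A rescue EB, each pair being replicates 1 and 2. The values of ESC and EB overlap, and replicate 1 of the WT rescue ESC is the lowest. The median overlap of H3K27me3 with the Jarid2 peak was 99.2% of the peak in ESC and 94.2% in EB. Over all Jarid2 peaks, the share touched by H3K27me3 ran from 14.2% (WT rescue ESC replicate 1) to 80.9% (KO ESC replicate 2). The longest domain measured 3.005 to 10.1 kb in ESC and 7.19 to 9.79 kb in EB. The mean coverage was 23.4% ± 7.32 (SD, n = 6) in ESC and 27.9% ± 5.25 (SD, n = 6) in EB, a difference of 4.58 percentage points with a standard error of 3.04 that did not pass the test (adjusted p = 0.301, limma). It was 2.08 points without replicate 1 of the WT rescue ESC and 1.57 with the same number of broad peaks. It turned to -21.3 with equal total called length, a setting that scaled coverage and left the peaks unchanged. Each library's coverage was multiplied by the geometric mean of all called lengths over its own. The factor was largest for replicate 1 of the WT rescue ESC, with 2.31 Mb called.

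Ascl2 and Phlda2 belong to the Kcnq1 domain, further along chromosome 7, and both are expressed from the maternal allele. Ascl2 is a bHLH transcription factor required for the trophoblast of the placenta, and Phlda2 is a small pleckstrin-homology protein that limits placental growth. Both have 1 annotated TSS, and it lay under a peak of each antibody. Ascl2 (chr7:150152727-150155169, minus strand) had a Jarid2 peak of 2745 bp with a score of 1988.43 and a Jarid2-K116me2 peak of 2727 bp with a score of 2237, sharing 2719 bp. Phlda2 (chr7:150687450-150688446, minus strand) had peaks of 2331 bp at 1627.81 and of 2008 bp at 1562.82, sharing 1970 bp. In CG content the Jarid2 peak of Ascl2 was high, with 6.78 CG per 100 bases, above or equal to 87.7% of the list, and that of Phlda2 held 5.15, beside a median of 4.49 over all Jarid2 peaks.

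At Ascl2, H3K27me3 covered more of the window in EB than in ESC. It covered 23.0% and 33.3% of the gene and flanks in KO ESC, 0% and 39.6% in WT rescue ESC, 22.8% and 41.2% in K116A rescue ESC, 66.6% and 71.9% in KO EB, 48.1% and 45.5% in WT rescue EB, and 74.0% and 77.6% in K116A rescue EB. Every EB library lay above every ESC library, which held for 2 of the 9 genes, Ascl2 and Phlda2, and for 6.98% of the 10723 genes tested. The mean rose from 26.7% ± 15.2 (SD, n = 6) to 63.9% ± 13.8 (SD, n = 6), by 37.3 percentage points with a standard error of 7.04 (adjusted p = 0.0120, limma over all genes with Benjamini-Hochberg adjustment). Over the Jarid2 peak, the median overlap was 100% in both ESC and EB, with 5 ESC and 6 EB libraries overlapping it. The domain around the gene measured 5.11 to 9.25 kb in the 5 ESC libraries that had one. In the KO and K116A rescue EB it measured 16.2 to 18.8 kb and reached beyond the upstream flank. In WT rescue EB the mark was instead in a domain of 7.04 to 8.15 kb over the gene and a separate piece upstream. The call was lost with coverage scaled to the same total called length in all libraries (10.6 points, adjusted p = 0.377, limma). It was also lost with the same number of broad peaks (9.88 points, adjusted p = 0.308, limma) and with flanks of 5 kb (32.7 points, adjusted p = 0.116, limma). Within 5 kb of the TSS the rise was 32.9 points and was not called (adjusted p = 0.139, limma).

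Phlda2 had little H3K27me3 in ESC and some in every EB library. The mark covered 0% and 11.2% in KO ESC, 0% and 2.35% in WT rescue ESC, 0% and 11.1% in K116A rescue ESC, 13.1% and 28.9% in KO EB, 16.2% and 24.5% in WT rescue EB, and 38.9% and 64.9% in K116A rescue EB. No replicate 1 library of ESC had a domain there, and all replicate 2 libraries did. Over the Jarid2 peak, the median overlap was 10.6% in ESC and 100% in EB. Coverage rose from 4.11% ± 5.53 (SD, n = 6) to 31.1% ± 18.96 (SD, n = 6), by 26.96 points with a standard error of 5.48 (adjusted p = 0.0156, limma). In replicate 2 of the K116A rescue EB the domain was 22.004 kb long, against at most 4.86 kb in the other 11 libraries. The call was lost without replicate 1 of the K116A rescue ESC (adjusted p = 0.0529) and without replicate 2 of the WT rescue EB (0.0502), with differences of 25.1 and 25.6 points. With the same number of broad peaks in every library the difference was 6.55 points and was not called (adjusted p = 0.286), and with equal total called length it was 16.7 points and was called (adjusted p = 0.00233).

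**Figure D1:**
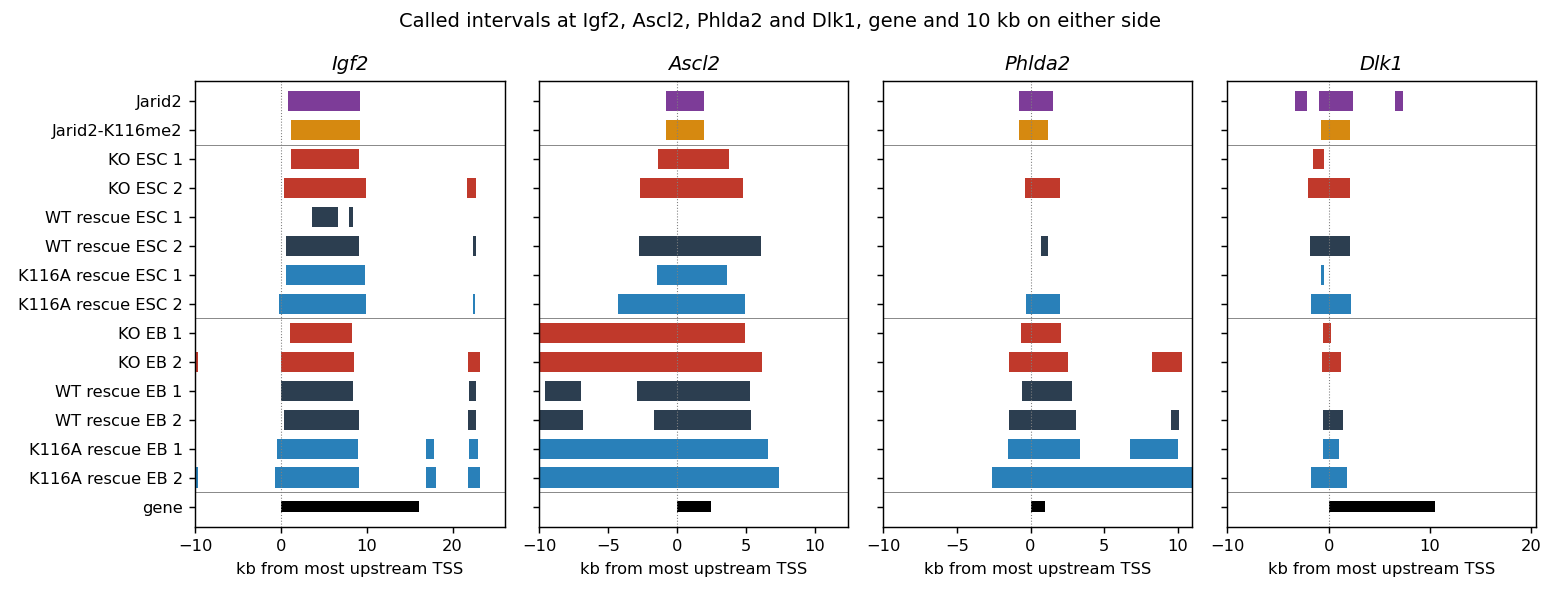
Called intervals at Igf2, Ascl2, Phlda2 and Dlk1, drawn in kb from the most upstream TSS in the direction of transcription, with 1 row for each Jarid2 or Jarid2-K116me2 list and for each H3K27me3 library (number = replicate), and the gene as a black bar. The windows stop 10 kb outside the gene. H3K27me3 at Ascl2 and Phlda2 covers more of the window in EB than in ESC, at Ascl2 in WT rescue EB through a separate upstream piece.

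Dlk1 and Meg3 lie 77.7 kb apart on chromosome 12. Dlk1 is a transmembrane protein related to the Notch ligands and is expressed from the paternal allele, whereas Meg3 is a long noncoding RNA of the maternal allele. Dlk1 (chr12:110691033-110701546, plus strand) had 3 Jarid2 peaks. The strong one (chr12:110690103-110693489, score 2739.81) covered 8 of the 9 annotated TSSs and overlapped a Jarid2-K116me2 peak of 2850 bp at 3100. The weaker peaks, at 151.87 (chr12:110687718-110688917, upstream of the gene) and 86.92 (chr12:110697574-110698334, over an exon and the remaining annotated TSS), had no counterpart and no H3K27me3 in any library. Jarid2 peaks without the mark were common, since H3K27me3 touched only 14.2% (WT rescue ESC replicate 1) to 80.9% (KO ESC replicate 2) of all of them. Meg3 (chr12:110779211-110809936, plus strand) had no peak of either antibody, the nearest Jarid2 peak being the weak exonic one of Dlk1, 80.9 kb upstream.

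H3K27me3 at Dlk1 was a short domain over the start. It covered 3.59% and 13.4% in KO ESC, 0% and 12.8% in WT rescue ESC, 0.924% and 13.2% in K116A rescue ESC, 2.57% and 6.21% in KO EB, 0% and 6.69% in WT rescue EB, and 5.15% and 11.6% in K116A rescue EB. In each of these 6 groups replicate 2 was higher than replicate 1. The mean was 7.32% ± 6.49 (SD, n = 6) in ESC and 5.38% ± 3.96 (SD, n = 6) in EB (difference -1.95 points, standard error 3.51, adjusted p = 0.694, limma), and the sign turned without replicate 2 of the K116A rescue ESC (0.10 points) or of the WT rescue ESC (0.18 points). At Meg3 the mark was called in 3 of 12 libraries only, in stretches of 0.332 to 0.996 kb that began more than 1 kb beyond the 3′ end of the gene and covered at most 1.96% of the window.

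Igf2r (chr17:12875272-12962530, minus strand) encodes the receptor that takes IGF2 to the lysosome and is expressed from the maternal allele, while the paternal allele transcribes the noncoding RNA Airn from within an Igf2r intron. Its only peak was a Jarid2 peak of 572 bp (chr17:12934139-12934710) with a score of 66.95, so low that 98.3% of the list scored at least as high, and no Jarid2-K116me2 peak overlapped it. It lay in an intron of Igf2r over the annotated start of Airn, 27.8 kb inside the gene, and held 6.29 CG per 100 bases. H3K27me3 did not overlap this peak in any library. Small domains near the Igf2r start were found in 4 of 6 ESC libraries, where they covered 0.522 to 2.87% of the window, and in 1 of 6 EB libraries, replicate 2 of the K116A rescue, with 3.31% together with a second domain. The nearest Jarid2-K116me2 peak was 174 kb away.

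Grb10 (chr11:11830511-11938686, minus strand), an adaptor protein that dampens insulin and insulin-like growth factor signalling and is maternally expressed in most tissues, carried the most extended enrichment. Its main Jarid2 peak (chr11:11922308-11941408) was 19101 bp long at a score of 3100 and covered 5 of the 9 TSSs, and a second of 818 bp at 108.04 lay next to it in an intron. Under the long peak there were 6 Jarid2-K116me2 peaks of 920 to 5589 bp, which together covered 73.0% of it. The strongest (chr11:11934126-11939714, score 3100) lay over the most upstream TSS, and the other 5 scored between 127.08 and 762.22. The Jarid2 peak held 2.68 CG per 100 bases, low in the list (12.1% of peaks had as few), and within it the Jarid2-K116me2 peaks ranged from 0.449 to 6.06. When overlap was asked of at least 50% of both peaks, or of midpoints within 500 bp, the 4 Jarid2-K116me2 peaks of Igf2, Ascl2, Phlda2 and Dlk1 still counted as overlapping and the 6 of Grb10, which share 1 Jarid2 peak, did not.

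H3K27me3 covered 15.1% and 26.3% of the Grb10 window in KO ESC, 1.73% and 20.3% in WT rescue ESC, 12.98% and 23.8% in K116A rescue ESC, 45.8% and 53.3% in KO EB, 19.8% and 20.4% in WT rescue EB, and 25.7% and 26.0% in K116A rescue EB. The KO EB were the highest of the 12, and both the WT rescue and the K116A rescue EB fell within the range of the ESC. Coverage rose from 16.7% ± 8.90 (SD, n = 6) in ESC to 31.8% ± 14.1 (SD, n = 6) in EB, by 15.1 points with a standard error of 3.94 (adjusted p = 0.0345, limma). This call was lost without any one of 8 of the 12 libraries (adjusted p up to 0.0937), namely K116A rescue EB 1 and 2, K116A rescue ESC 1, KO EB 2, KO ESC 1, WT rescue EB 1 and 2 and WT rescue ESC 1, and the difference was 8.81 points with the same number of broad peaks, 8.96 within 5 kb of a TSS, neither called, and -1.93 with equal total called length. The longest domain in KO EB was 46.6 and 72.4 kb, against 17.7 and 26.2 kb in WT rescue EB and 33.0 and 35.7 kb in K116A rescue EB. Further domains lay 36.8 to 64.2 kb downstream of the TSS in KO EB replicate 1 and 30.1 to 64.3 kb in replicate 2, where no other library had any.

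**Figure D2:**
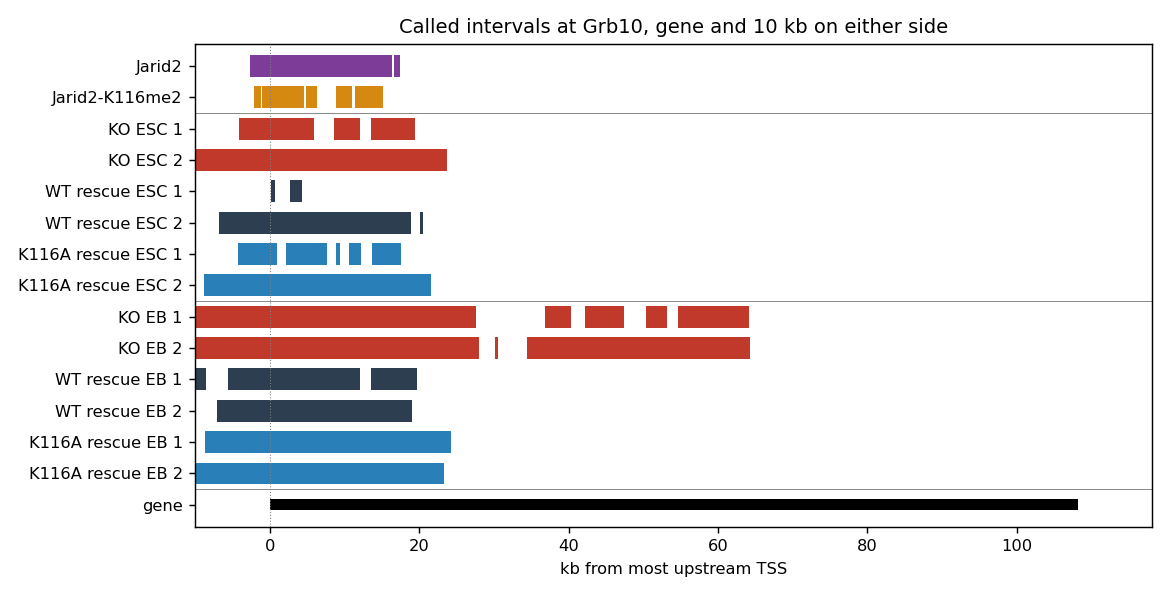
Called intervals at Grb10 in kb from its most upstream TSS, with 1 row per list or H3K27me3 library and the gene as a black bar. Only the 2 KO EB libraries have domains beyond 30 kb downstream of the TSS, while the Jarid2 and Jarid2-K116me2 peaks end before 20 kb.

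Peg3 (chr7:6656603-6683132, minus strand), a zinc-finger protein of the paternal allele, had no Jarid2 or Jarid2-K116me2 peak, no H3K27me3 in any of the 12 libraries, and its nearest Jarid2 peak was 347 kb upstream. Thus H19 and Peg3 had 0 coverage throughout, and 7 of the 9 genes could be tested.

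**Figure D3:**
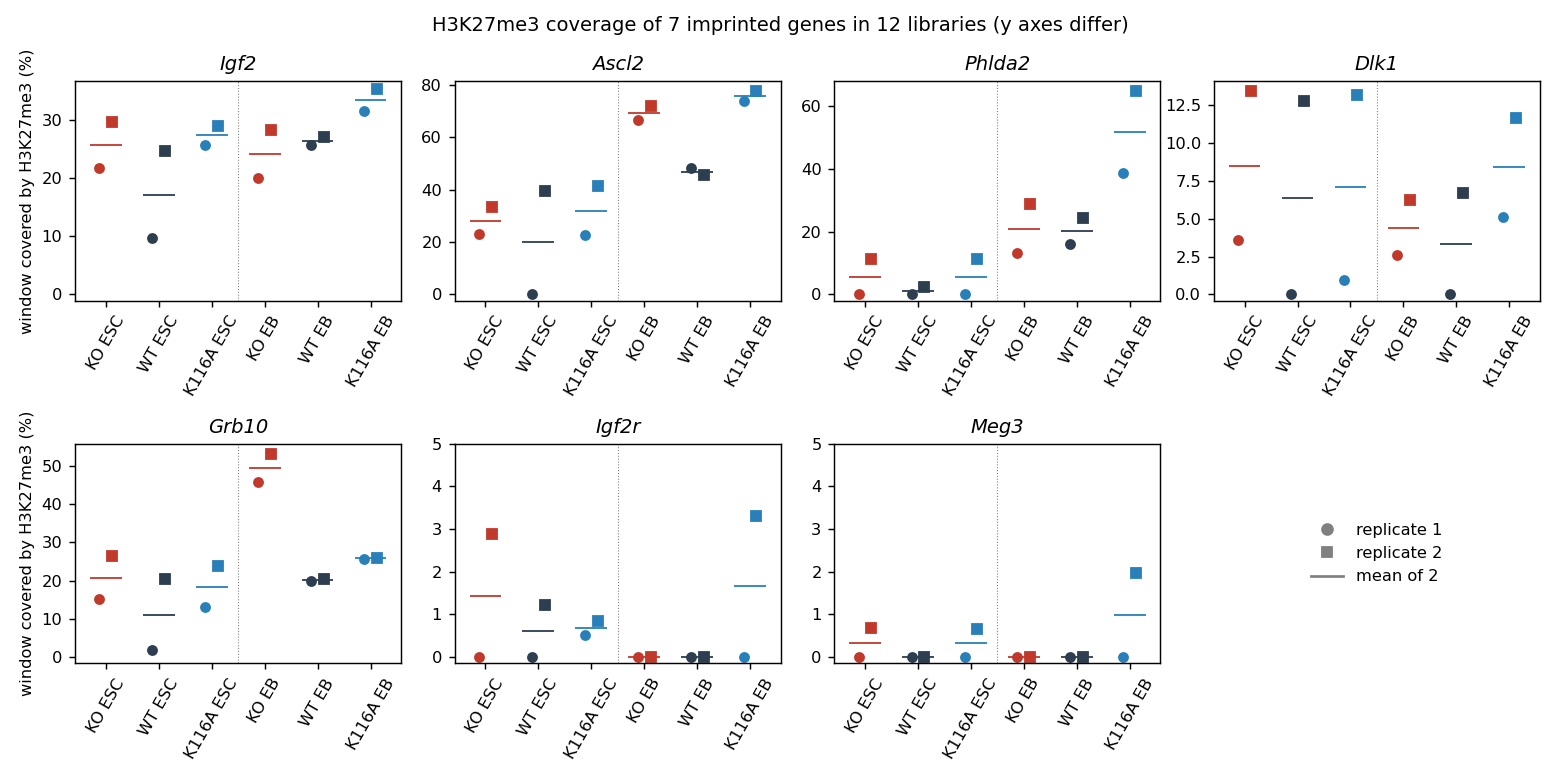
H3K27me3 coverage in percent of the gene and 10 kb on either side, for 7 genes in 12 libraries, with circles for replicate 1, squares for replicate 2 and lines for the mean of 2. The y axes differ, and only Ascl2 and Phlda2 have every EB library above every ESC library.

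In the comparison of EB with ESC over all lines, 3 of 7 tested genes (42.9%), Ascl2, Phlda2 and Grb10, passed the test as higher in EB, against 22.7% of all 10723 genes, and none as lower, against 0.429%. The called length ran from 2.31 to 29.2 Mb in ESC libraries and from 19.6 to 55.0 Mb in EB libraries. The median difference was 4.58 points over the 7 genes and 1.84 over all genes. With an exact permutation of the ESC and EB labels within lines (216 arrangements, two-sided), Ascl2 and Phlda2 reached the smallest p possible, 0.00926, but after adjustment over all genes the p was 0.0680 for both and 0.106 for Grb10, and none of the 10723 genes passed.

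The comparisons between lines asked whether the mark at these genes depends on Jarid2 or on its lysine K116. In ESC none of the 7 genes passed the test for KO or for K116A against WT rescue (limma, adjusted p under 0.05). Over all genes 0% were called in both comparisons at the same threshold. In EB, the only gene called for KO against WT rescue was Grb10, higher in KO by 29.4 points with a standard error of 6.82 (49.5% against 20.1%, adjusted p = 0.0272, limma), 1 of 7 genes (14.3%) against 17.7% of all genes, a share below that over all genes. The call at Grb10 was lost without KO EB replicate 2 (adjusted p = 0.180), without WT rescue EB replicate 1 (0.128) or without WT rescue EB replicate 2 (0.116), and the difference was 12.4 points with the same number of broad peaks (adjusted p = 0.464) and 3.95 with equal total called length (adjusted p = 0.875). The called length was 33.6 and 55.0 Mb in KO EB and 19.6 and 22.5 Mb in WT rescue EB. Within 5 kb of a TSS the difference was 3.15 points and was not called.

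At Phlda2 the mean coverage was 51.9% in K116A rescue EB and 20.3% in WT rescue EB (31.6 points, standard error 9.49, adjusted p = 0.346, limma). At Ascl2 it was 75.8% and 46.8% (28.99 points, standard error 12.2, adjusted p = 0.622, limma). Both replicates of K116A lay above both of WT at these genes, yet neither difference passed the test. The called length was 23.2 and 37.2 Mb in K116A rescue EB and 19.6 and 22.5 Mb in WT rescue EB, and with equal total called length the differences were 14.3 points at Phlda2 and 7.61 at Ascl2. With the same number of broad peaks they were 3.48 points at Phlda2 and 41.9 at Ascl2, and without replicate 2 of the K116A rescue EB that of Phlda2 was 18.6. Over all genes 0.783% were called in this comparison, in either direction. At Ascl2 the means were 69.2% in KO EB and 46.8% in WT rescue EB (adjusted p = 0.274, limma), and the difference turned to -33.8 points with the same number of broad peaks and to -11.2 with equal total called length. None of the 7 genes passed the test of the interaction, whether the change from ESC to EB differed between lines. The share of all genes passing it was not counted. Among the 7 the smallest p was that of Grb10 in KO against WT rescue (19.8 points, standard error 9.65, adjusted p = 0.369, limma). With 2 replicates per group an exact permutation test of 2 lines cannot go below 0.333.

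**Figure D4:**
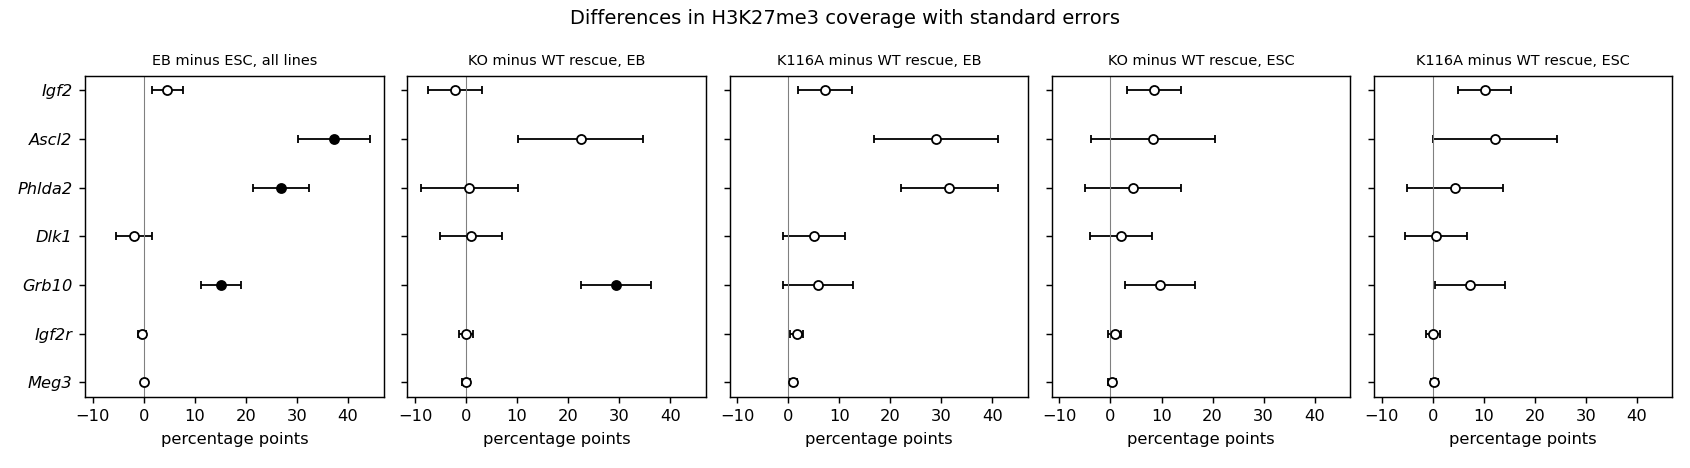
Differences in H3K27me3 coverage in percentage points, with standard errors from limma, for 7 genes in 5 comparisons. Filled points passed an adjusted p under 0.05, namely Ascl2, Phlda2 and Grb10 for EB against ESC and Grb10 for KO against WT rescue in EB.

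The same peaks were sought at a wider list of imprinted genes, 67 of whose 72 names were in the annotation. Jarid2 peaks were found at 26 (38.8%), against 20.1% of all genes, and Jarid2-K116me2 peaks at 22 (32.8%), against 17.8% of all genes. Jarid2 alone was found at 4 (Airn, Mest, Osbpl5 and Plagl1). Their highest Jarid2 scores were 66.95, 84.17, 101.59 and 86.66, in a list whose lowest score was 62.07. Counted over peaks and not genes, 79.1% of all Jarid2 peaks overlapped a Jarid2-K116me2 peak. Slc22a18 and Airn share their peak with Phlda2 and Igf2r, and Peg10 and Sgce have equal scores, so the genes counted may not be independent. The 10 with the highest Jarid2 score were Cdkn1c, Dio3, Klf14, Kcnk9, Rasgrf1 and Sfmbt2 at 3100, Gnas at 2975.02, Peg12 at 2713.52, Nespas at 2342.3 and Gab1 at 1954.6. Among them Cdkn1c, a cell-cycle inhibitor in the same domain as Phlda2 and Ascl2, and Dio3, the deiodinase gene of the Dlk1 domain, had a median H3K27me3 coverage of 50.3% and 21.7% in ESC. At Cdkn1c the ESC libraries ran from 0 to 69.8%. The medians of the others in ESC varied widely. They were 75.9% for Peg12, 38.6% for Klf14, 13.4% for Kcnk9, 8.01% for Nespas and 7.21% for Gnas. Rasgrf1 had 4.86%, Sfmbt2 2.89% and Gab1 2.49%. Like Peg3, its neighbours Usp29 and Zim1 had no peak, and like Meg3, the noncoding Rian and Mirg had none. From ESC to EB, 8 of 44 tested genes (18.2%) rose and 0 fell, close to the share of all genes.

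By the Euclidean distance over the 12 coverage values, the 2 genes over 1 Mb away most like each covered member were Ostm1 and Gdnf for Igf2 (mean difference, as root mean square, 3.21 and 3.55 points), RP23-252I12.4 and Nkx2-4 for Ascl2 (4.83 and 6.45), Vsig2 and Gm10574 for Phlda2 (5.60 and 6.84), Slc38a3 and Cbln4 for Dlk1 (2.55 and 2.59), and Alx1 and Nefh for Grb10 (3.06 and 4.63). The 12 values share the depth of each library, and the distances are descriptions.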

How the data were processed

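Processed peak lists of 14 ChIP-seq samples out of 16 were used, the other two being inputs. Per the methods of the authors, single-end libraries (100 bp) were aligned by Bowtie2 2.1.0 on mm9, duplicates were discarded, and peaks were called against input, with MACS 1.4.2 at an FDR of 0.15% for Jarid2 and Jarid2-K116me2 and with MACS2 2.0.10 in broad mode at an FDR of 5% for H3K27me3. The study lists 1 input with the H3K27me3 libraries, apart from that of E14, and its text does not name the cells. Besides that of E14, the only input among the samples is labelled as Jarid2 -/- ESC. No input is labelled as EB or as a rescue line. The deposited values are positions and a score, each sample called separately. The meaning of the score of the H3K27me3 peaks is not stated, and it was used to rank peaks within a library and, in 1 alternative, with the same lowest value in all libraries.

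The 9 genes and the gene lists were chosen with earlier results of these data known. Peaks were assigned to a gene when in it or within 10 kb, and overlap meant at least 1 bp. For H3K27me3, the percent of the gene and its flanks covered was compared in all 12 libraries by limma 3.58.1 (R 4.3.3) without a block, for 10723 genes covered in at least 2 libraries, with Benjamini-Hochberg adjustment and a threshold of 0.05. A percent of a window is bounded, and libraries without a peak sit at 0. The replicate numbers are not labelled as batches, but the deviations of same-numbered libraries correlated at 0.127 to 0.817 in all 15 pairs of groups, so the replicate block was an alternative. Of the wider imprinted list, the 10 genes with the highest Jarid2 score were named. Scripts were tested on simulated data. The scripts used Python 3.11.15, numpy 2.4.6 and pandas 2.3.3. Other alternatives were flanks of 5 kb, windows of 5 kb around a TSS, no filter, equal peak numbers and a shared lowest score. Coverage scaled to an equal total called length, a variance trend and omission of each library were also used.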

Additional observations from a re-analysis of the deposited data

How the results depend on the processing

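The presence of Jarid2 peaks (6 of 9 genes) and Jarid2-K116me2 peaks (5 of 9) stayed within 1.5 times under distances of 5 and 20 kb, a TSS distance of 1 kb and a score of 200 or more. Among the Jarid2-K116me2 peaks, 4 instead of 10 overlapped with at least 50% of each peak or with midpoints within 500 bp. Of the 3 genes called higher in EB, 1 was called with 5 kb around a TSS or with equal total called length, and 0 with the same number of broad peaks or by exact permutation within lines. Leaving out each library in turn gave 1 to 3 called genes, with 1 left without replicate 1 of the K116A rescue ESC or replicate 2 of the WT rescue EB. For KO against WT rescue in EB, the 1 called gene, Grb10, was lost with 5 kb around a TSS, the same number of broad peaks or equal total called length (0 called), and leaving out each library gave 0 or 1. Differences that turned were, with equal total called length, Grb10 (-1.93 points) and Igf2 (-21.3) in EB against ESC and Ascl2 (-11.2) in KO against WT rescue in EB, with the same number of broad peaks Ascl2 in that comparison (-33.8), and Dlk1 without replicate 2 of the K116A rescue ESC (0.10) or of the WT rescue ESC (0.18), its range over the omitted libraries being -4.08 to 0.18. The cause was not tested. With the replicate block, 3 genes were called in EB against ESC and 1 in KO against WT rescue in EB, and no call changed, while 3892 instead of 2483 of all genes were called in EB against ESC. The same lowest score, the coverage scaled to the same total called length and the variance trend were chosen after seeing the data. The alternative with a stricter q-value was not run because the files used give no q-values. The reads behind each peak are not in the files used.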
